A study of Saccharomyces cerevisiae with 12 samples.

Results

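Wild-type budding yeast, Saccharomyces cerevisiae, was profiled by RNA sequencing with and without ATP added to its medium. The members described are all genes that passed a filter on low counts, 6157 of the 7127 features counted, in 6 of the 12 libraries of the series. The wild-type strain carried an empty vector and was the control strain of a study on ATP import. Cultures were in mid-log growth in complete synthetic medium, and 3 of them were left untreated while 3 others received 5 mM extracellular ATP for 1 h. The replicates are described as independent biological ones, and each of the 6 samples carries a strain name of its own in the labels, so that strain name and culture cannot be told apart. What the ATP was dissolved in, and whether untreated cultures received that vehicle, are not given in the sources used here. The other 6 libraries came from a strain with an integrated construct for NTT1, a nucleotide transporter of the microsporidian parasite Encephalitozoon cuniculi, and with a QUEEN reporter, at the same dose and time. They shared the estimate of spread and entered 1 comparison, given last.

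Budding yeast sets its growth by the sugar it senses. Glucose acts through Ras and the receptor-coupled protein Gpa2 on cyclic AMP and protein kinase A, which holds back the stress factors Msn2 and Msn4, while falling glucose activates the kinase Snf1 and lifts the repression of genes for other carbon sources. Genes for ribosome assembly rise with growth and carry the promoter elements PAC and RRPE, whereas stress genes and those for the storage sugars glycogen and trehalose often carry the stress element STRE. No importer of intact ATP is known in the plasma membrane of this species, phosphatases outside the cell can release its phosphate, and ATP in solution binds divalent metal ions.

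Levels are given as CPM, the counts of a gene scaled to the library total, normalised between libraries by TMM, and come from 15918385 to 20284542 counts per wild-type library. CPM are shares of a library, so that less of a transcript per cell and more of the other transcripts cannot be told apart, nor can fewer cells in a given state and less RNA per cell. Untreated replicate 3 was closer to the treated libraries than to its own group. Its log2 CPM correlated with the 3 treated libraries at r = 0.9912 to 0.9925 across genes, and with untreated replicates 1 and 2 at 0.9865 and 0.9772. The treated libraries correlated among themselves at 0.9945 to 0.9959, and untreated replicates 1 and 2 at 0.9888. With the treated libraries, untreated replicate 1 correlated at 0.9784 to 0.9824 and untreated replicate 2 at 0.973 to 0.9772, the lowest. Which untreated library is the unusual one cannot be told from these values. Counts of called genes are therefore also given for fits with each single library left out, and the place of untreated replicate 3 is expressed as a position on the log2 CPM scale, where 0 is the mean of untreated replicates 1 and 2 and 1 is the mean of the treated libraries. Over the 784 genes called below, the median position was 0.54, with quartiles of 0.303 and 0.708. A gene with untreated replicate 3 at the treated level is less likely to be called, so positions of called genes depend in part on the calling.

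**Figure D1:**
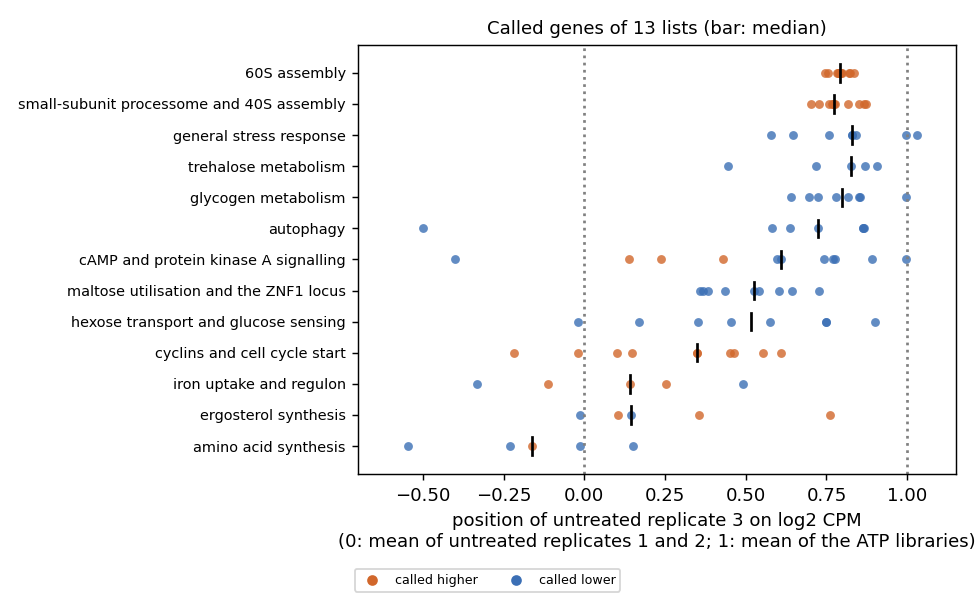
Position of untreated replicate 3 for each called gene (point) of 13 gene lists, on a log2 CPM scale where 0 is the mean of untreated replicates 1 and 2 and 1 the mean of the 3 ATP libraries. The called genes of ribosome assembly, general stress, trehalose and glycogen lay mostly between 0.6 and 1.0, whereas those of cyclins, iron, ergosterol and amino acid synthesis had medians of 0.35 or less.

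With ATP, 334 genes rose and 450 fell at a Benjamini-Hochberg adjusted p under 0.05 in edgeR's quasi-likelihood test, which is 5.42% and 7.31% of the genes tested, or 12.7% together. The changes were mostly small. The median log2 fold change was 0.447 over genes called higher and -0.559 over genes called lower, against 0.003 over all genes. A change of 2-fold or more was reached by 117 called genes (1.9%), of which 21 rose (0.341%) and 96 fell (1.56%). The CPM ranges of the 2 groups did not overlap for 743 of the 784 called genes, and for 27.1% of all genes.

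The number of calls depended on single libraries and on which libraries set the estimate of spread. Without untreated replicate 3, 1009 genes were called higher and 1077 lower, and 775 of the 784 genes were called again in the same direction. Without untreated replicates 1 or 2 the calls were 89 and 189, and without ATP replicates 1, 2 or 3 they were 110, 198 and 93. When only the 6 wild-type libraries were fitted, 19 genes were called. No library of the comparison is removed there, but the spread comes from wild type alone. Its common biological coefficient of variation, edgeR's measure of spread between replicates, was 0.141 with 4 residual degrees of freedom. Over all 12 libraries, as used for the 784 calls and the standard errors, it was 0.119 with 8. With 1 library left out at a time, all 784 genes kept their direction, 64 were called in each of these reduced fits, and 523 were called again in no other than that without untreated replicate 3. A called gene described below lost its call in at least 1 reduced fit unless it is said to be called whichever library was left out. Counts for gene lists stand beside 5.42% higher and 7.31% lower of all genes, or 16.3% and 17.4% in the fit without untreated replicate 3. List counts at an unadjusted p under 0.05 stand beside 30.0% of all genes, and those called by DESeq2 beside 1120 of 6157 genes. Counts over the reduced fits are given in the order of untreated replicates 1, 2 and 3 and ATP replicates 1, 2 and 3 left out.

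**Figure D2:**
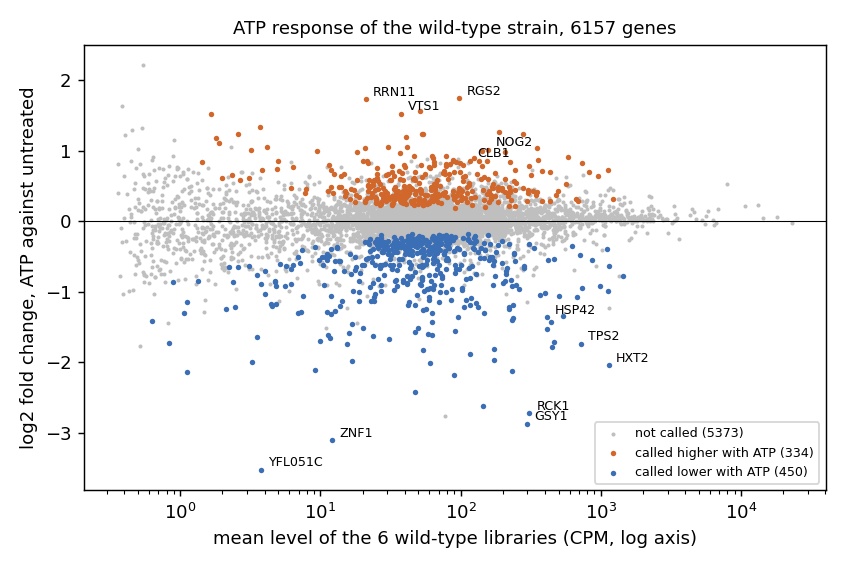
Fitted log2 fold change, ATP against untreated wild type (y axis), against the mean CPM of the 6 libraries (x axis, log scale), with 1 point per gene. The 334 genes called higher mostly lie below a log2 fold change of 1, while the 450 called lower reach -3.53 at YFL051C.

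The 12 largest rises and 12 largest falls were picked among called genes averaging 20 counts or more whose group ranges did not overlap. Their lack of overlap was thus set by the choice. The largest of these rises was in RGS2. Its protein speeds GTP hydrolysis on Gpa2 and so turns down the glucose signal to adenylate cyclase. RGS2 was at 39.2, 41.4 and 55.0 CPM without ATP and 163, 121 and 170.4 CPM with it. Each treated library lay above each untreated one, by 3.35-fold in the fit, a log2 fold change of 1.74 ± 0.21 (edgeR adjusted p = 0.00586). It was 1.91 when untreated replicate 3 was left out, and RGS2 was called whichever library was left out.

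Next was RRN11, which encodes a subunit of the core factor that recruits RNA polymerase I to ribosomal DNA. RRN11 was at 5.29, 6.95 and 17.2 CPM without ATP and 35.1, 28.6 and 33.8 CPM with it. Untreated replicate 3 lay highest of its group but below every treated library, and the log2 fold change was 1.73 ± 0.33 (edgeR adjusted p = 0.0131), or 2.40 without that library. VTS1, which encodes an RNA-binding protein that promotes decay of transcripts with a hairpin motif, was at 11.9, 17.8 and 28.6 CPM without ATP and 58.3, 54.3 and 54.5 CPM with it. Its ranges did not overlap, and it rose by 1.52 ± 0.24 (edgeR adjusted p = 0.00893). YOX1, a homeobox repressor of genes read at the end of mitosis and in early G1, was at 21.9, 23.6 and 28.6 CPM without ATP and 56.9, 47.5 and 65.6 CPM with it. AQR1, a plasma membrane transporter of the major facilitator family, was at 32.1, 26.3 and 36.1 CPM without ATP and 83.6, 63.9 and 74.7 CPM with it. Neither gene's groups overlapped, and the log2 fold changes were 1.19 ± 0.17 for YOX1 (edgeR adjusted p = 0.00611) and 1.23 ± 0.18 for AQR1 (edgeR adjusted p = 0.00632). The others among the 12 largest rises were HMT1, a protein arginine methyltransferase, at 1.27, REI1, a cytoplasmic maturation factor of the large ribosomal subunit that overlaps YBR266C, at 1.24, COM2 at 1.24, the small gene MIN10 at 1.23, YGR079W at 1.56, and the features YPR044C at 1.51 and YDR183C_A at 1.33, which have no entry in the RefSeq gene table used. RGS2, VTS1, YOX1, AQR1, YPR044C and YDR183C_A kept their calls whichever library was left out. REI1 and COM2 were called again only without untreated replicate 3, at 1.75 and 1.52, and the rest lost the call without at least 1 other library.

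The largest falls were at 2 neighbouring genes on chromosome VI, YFL051C and ZNF1. ZNF1 (chromosome VI, 28232 to 29629 on the plus strand of R64) encodes a zinc-cluster transcription factor of genes for non-fermentable carbon and maltose. ZNF1 was at 27.6, 26.0 and 11.3 CPM without ATP and 2.45, 3.50 and 1.46 CPM with it. Untreated replicate 3 was the lowest of its group and still above every treated library, and ZNF1 fell 8.60-fold, a log2 fold change of -3.10 ± 0.42 (edgeR adjusted p = 0.00611). YFL051C (30058 to 30540 on the minus strand), a short gene of unknown function related to cell surface lectins, was at 8.08, 9.30 and 3.34 CPM without ATP and 0.599, 0.659 and 0.509 CPM with it. It rests on few counts, and its log2 fold change was -3.53 ± 0.48 (edgeR adjusted p = 0.00611). DAK2, a dihydroxyacetone kinase gene, and AQY3, an aquaglyceroporin-like gene, lie next on the same side and also fell, by 2.11 and 1.57 on the log2 scale (edgeR adjusted p = 0.0129 for DAK2 and 0.0129 for AQY3). The 4 adjacent genes span 20847 to 30540, and the gene on the other side, the magnesium transporter ALR2, was not called (-0.24, edgeR adjusted p = 0.0949).

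Other large falls were in kinases, regulators and sugar genes. RCK1, a kinase of the oxidative stress response, was at 683, 599 and 326 CPM without ATP and 44.8, 114 and 84.0 CPM with it. CIN5, a basic leucine zipper factor of the Yap family active in salt stress, was at 356, 282 and 113 CPM without ATP and 31.9, 54.3 and 35.8 CPM with it. Both had lower values in every treated library than in any untreated one, and fell by 2.73 and 2.62 on the log2 scale (edgeR adjusted p = 0.0206 and 0.0119). HXT2, a glucose transporter of moderate to high affinity, was at 2525, 1776 and 1214 CPM without ATP and 350.3, 602 and 388 CPM with it, and fell by 2.04 (edgeR adjusted p = 0.0270). COS111 fell by 2.18, YNL194C, which encodes a membrane protein of the cell cortex, by 2.00, and DSF1, which is near-identical to another mannitol dehydrogenase-like gene and so uncertain in its counts, by 2.00. The glycogen genes GSY1, GIP2 and GLC3 complete the 12 and are described below. Of the 39 genes next to the 12 largest rises and falls, 1 rose and 9 fell, each in the direction of the gene beside it. Of all genes, 5.42% rose and 7.31% fell. ZNF1, YFL051C and DAK2 are among these 9 and were themselves picked as largest falls, so they count as neighbours of one another. Among the largest falls, ZNF1 and YFL051C were called whichever library was left out, COS111 in 5 of the 6 fits, CIN5 in 4, and HXT2 only without untreated replicate 3, at -2.27.

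**Figure D3:**
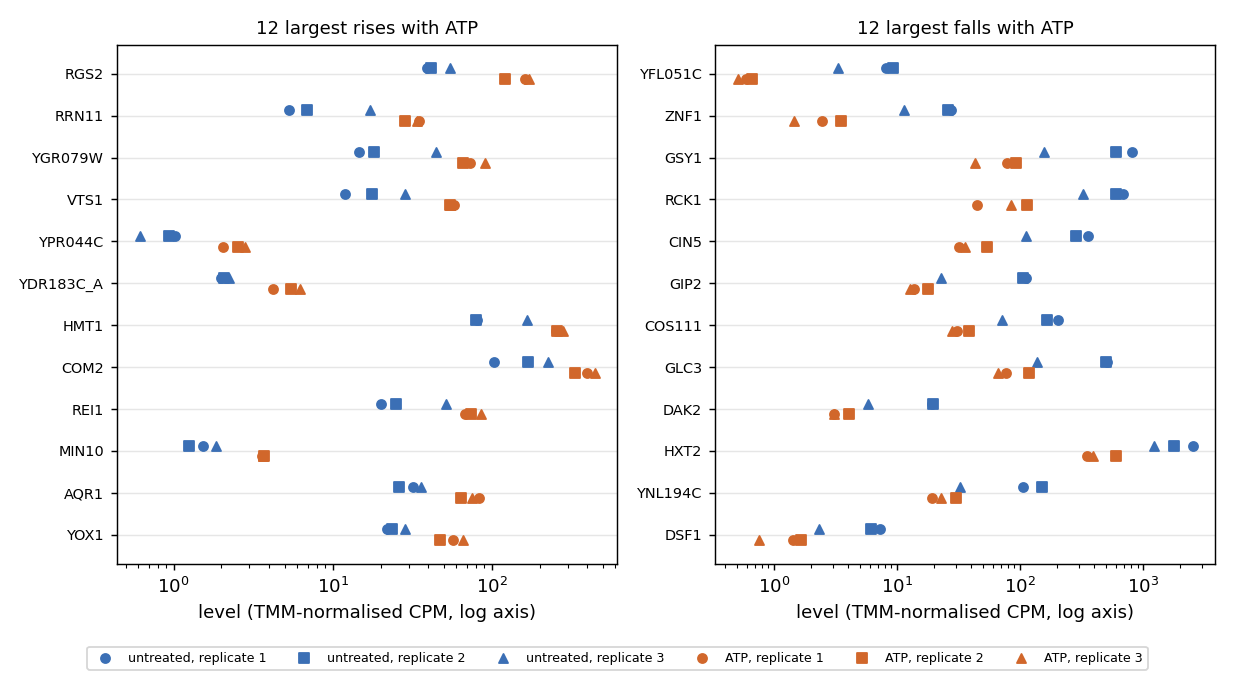
TMM-normalised CPM (log axis) in each of the 6 wild-type libraries for the 12 largest rises (left) and 12 largest falls (right) with ATP, with blue symbols for untreated and orange for ATP libraries and 1 symbol shape per replicate number. By the choice of genes, all ATP libraries lie on 1 side of all untreated ones in each. Untreated replicate 3 (blue triangles) is the untreated library nearest to the ATP libraries in most.

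Among called genes of high CPM, which is not corrected for gene length, the rises were in FAS1, the beta subunit of fatty acid synthase (0.32), TPO2, a polyamine exporter (0.73), EXG1, a glucanase of the cell wall (0.64), CIS3, a mannoprotein of the wall (0.70), and GPP2, a glycerol-3-phosphatase (0.82). GPP2 was at 506, 513 and 575 CPM without ATP and 837, 924 and 1052 CPM with it. All treated values were above all untreated ones, and the call held in each fit without 1 library. The falls were in HXT2, in ALD6, the cytosolic acetaldehyde dehydrogenase (-0.77), in HSP104, a protein disaggregase (-0.63), in the glucose transporter gene HXT4 (-0.98) and in HXK2, the main hexokinase in glucose (-0.39). FAS1, TPO2, EXG1, ALD6, HSP104, HXT4 and HXK2 were called again only without untreated replicate 3, where their log2 fold changes were 0.41, 1.05, 0.87, -0.97, -0.82, -1.28 and -0.47.

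A group of 13 genes was called in each fit without 1 library and also in the 6 wild-type libraries alone. These were RGS2, AQR1, YOX1, STP4, CLB1, CSR1 and GPP2 upward and YFL051C, NRG2, HXT17, NRG1, ICS2 and CSS1 downward, and those outside the largest changes were picked out after their values were seen. NRG1 and NRG2 encode zinc-finger repressors of glucose-repressed genes. NRG1 was at 198, 176 and 156 CPM without ATP and 72.2, 83.9 and 81.8 CPM with it. NRG2 was at 105, 90.4 and 71.0 CPM without ATP and 35.2, 37.5 and 35.0 CPM with it. The groups of both were apart, with log2 fold changes of -1.16 ± 0.15 and -1.30 ± 0.21 (edgeR adjusted p = 0.00611 and 0.00893). STP4, another zinc-finger gene, was at 196, 224 and 269 CPM without ATP and 466, 439 and 511 CPM with it, and CSR1, a phosphatidylinositol transfer protein gene, was at 69.8, 69.5 and 75.7 CPM without ATP and 127, 127 and 127 CPM with it. Both rose, by 1.04 and 0.82 (edgeR adjusted p = 0.00940 and 0.00586), and in CSR1 the 3 values within each group were close. ICS2 and CSS1 fell by 0.96 and 0.84 on the log2 scale.

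Glycogen, the branched store of glucose, was the first sugar store examined. Of 18 tested genes of its metabolism, 8 were called lower and 0 higher, beside 7.31% and 5.42% of all genes, with a median log2 fold change of -0.93. GSY1, the minor glycogen synthase isoform, was at 807, 598 and 157 CPM without ATP and 78.5, 92.0 and 42.9 CPM with it. The groups did not overlap, but replicate 3 lay far below the other untreated cultures, and GSY1 fell 7.31-fold (-2.87 ± 0.54, edgeR adjusted p = 0.0131). GSY2, the major isoform, was at 848, 731 and 256 CPM without ATP and 223, 240.4 and 174 CPM with it, and fell by 1.52 on the log2 scale (edgeR adjusted p = 0.0206). GLC3, the branching enzyme, was at 509.7, 494 and 138 CPM without ATP and 77.2, 118 and 66.6 CPM with it, and fell by 2.12 (edgeR adjusted p = 0.0170).

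The other called genes of the list act around the synthases. GLG1, a self-glucosylating primer protein, fell by 1.36, PGM2, the major phosphoglucomutase, by 1.78, and GIP2, GAC1 and PIG2, which tether the phosphatase Glc7 to glycogen synthase, by 2.43, 0.98 and 1.07. PGM2 was at 974, 900.4 and 202 CPM without ATP and 191, 228 and 185 CPM with it, so that untreated replicate 3 lay within the range of the treated libraries. Both main breakdown genes had a negative value without a call. GPH1, glycogen phosphorylase, was at 362, 406 and 81.9 CPM without ATP and 137, 151 and 129 CPM with it (edgeR adjusted p = 0.162), and GDB1, the debranching enzyme, was at 63.5, 107 and 20.4 CPM without ATP and 39.8, 35.9 and 33.5 CPM with it (edgeR adjusted p = 0.241). In both, untreated replicate 3 was below every treated library. The remaining members, UGP1, SGA1, PCL8, PIG1, GLC8, GLG2, PCL10 and PGM1, lay between -0.89 and -0.03 without a call. In the reduced fits 0, 2, 14, 0, 4 and 0 members were called lower.

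Trehalose, a disaccharide store and stress protectant, has its own genes. Of 7 tested, 5 were called lower and 0 higher, with a median of -0.82. TPS1, the synthase subunit, was at 1179, 1180.0 and 563 CPM without ATP and 509, 548 and 460.4 CPM with it. TPS2, the phosphatase subunit, was at 1473, 1345 and 493 CPM without ATP and 359.7, 369.8 and 262 CPM with it. TSL1, a regulatory subunit, was at 907, 984 and 246 CPM without ATP and 244, 226 and 179 CPM with it. In each, the lowest untreated value was that of replicate 3 and lay above the treated values, and the falls were 0.95, 1.74 and 1.72 on the log2 scale (edgeR adjusted p = 0.0267, 0.0130 and 0.0267). TPS3, a further regulatory subunit, fell by 0.75. NTH2, one of the neutral trehalases, which break trehalose down, was at 159, 147 and 114 CPM without ATP and 75.7, 82.5 and 79.7 CPM with it. It fell by 0.82 (edgeR adjusted p = 0.00611) and was the member called whichever library was left out. NTH1 and ATH1, the other trehalases, were not called (-0.50 and -0.76, edgeR adjusted p = 0.0731 and 0.0521). For trehalose the reduced fits gave 1, 2, 7, 1, 2 and 1 members called lower.

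**Figure D4:**
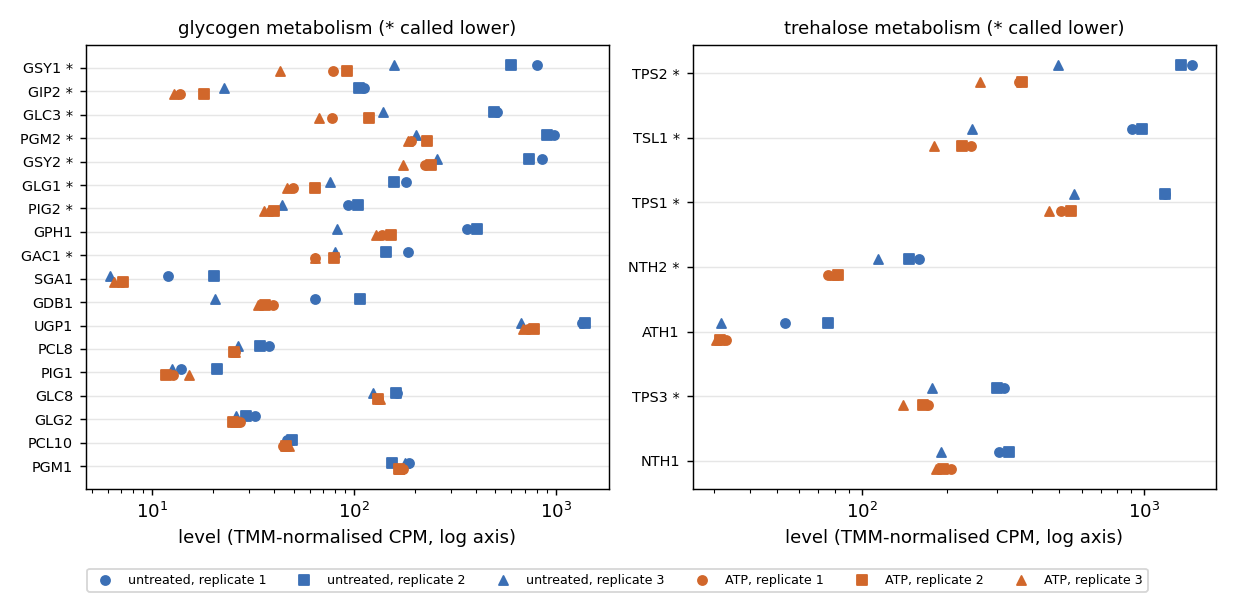
TMM-normalised CPM (log axis) of 18 glycogen genes (left) and 7 trehalose genes (right) in each wild-type library, with blue symbols for untreated and orange for ATP. Called genes, marked with a star, fell with ATP, and untreated replicate 3 (blue triangles) lies close to the ATP libraries, and in GPH1 and GDB1 below them.

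The general stress response, genes known as targets of Msn2 and Msn4, had 8 of 34 members called lower and 0 higher, with a median of -0.39. HSP42, a small heat shock protein that gathers unfolded proteins, was at 732, 712 and 346 CPM without ATP and 243, 243 and 209.6 CPM with it. Its groups did not overlap, it fell by 1.36 (edgeR adjusted p = 0.00916), and it was called whichever library was left out. USV1, a zinc-finger regulator of stress and non-fermentable growth genes, fell by 1.96, CYC7, the isoform of cytochrome c of low oxygen, by 1.74, and HSP78, a mitochondrial chaperone, by 1.22. SOL4, TMA10, PHM7 and HSP104 were the other members called. In the called genes the median position of untreated replicate 3 was 0.828. Over the whole list the median log2 CPM of that library lay -0.45 from the mean of the 6 libraries, against 0.33 and 0.70 in untreated replicates 1 and 2 and -0.29, -0.11 and -0.003 with ATP, so that it lay below the treated libraries. Without it 17 of 34 were called lower and the median was -0.70. Without untreated replicate 2 the median was 0.007, and the reduced fits gave 2, 3, 17, 1, 3 and 1 members called lower.

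Chaperones overlap this list. Of 28 chaperone and heat shock genes, which share HSP42, HSP78 and HSP104 with the stress list, 5 were called lower and 0 higher, with a median of -0.09. HSP82, the inducible Hsp90, fell by 0.48 and AHA1, its activator, by 0.33 (edgeR adjusted p = 0.0411 and 0.0401). Among 20 catalase, superoxide dismutase, peroxidase and thioredoxin system genes, CCP1, the mitochondrial cytochrome c peroxidase, fell by 0.56 (edgeR adjusted p = 0.0179), and the other 19 were not called: CTA1, CTT1, SOD1, SOD2, TSA1, TSA2, AHP1, PRX1, DOT5, GPX1, GPX2, HYR1, TRX1, TRX2, TRX3, TRR1, TRR2, GRX1 and GRX2 lay at -0.44 to 0.16. The catalase CTT1, a stress gene, was at 241, 252 and 68.4 CPM without ATP and 133, 175 and 184 CPM with it (edgeR adjusted p = 0.809), with untreated replicate 3 lowest of all 6. Of 34 autophagy genes 7 fell and 0 rose, led by ATG39, a receptor for autophagy of the nucleus, by 1.46, followed by ATG1, the initiating kinase, by 0.53, and by ATG41, ATG20, ATG26, ATG21 and ATG4, whose log2 fold changes reached -0.33 at ATG4. The autophagy median was -0.27. Of 34 proteasome genes 1 fell, RPN4, their transcription factor, by 0.52 (edgeR adjusted p = 0.0152). Without untreated replicate 3 the counts called lower were 11 chaperone, 5 antioxidant, 20 autophagy and 1 proteasome gene, in a fit that called 17.4% of all genes lower, and without any 1 other wild-type library at most 2, 1, 1 and 1.

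The stress element STRE, AGGGG on either strand, was counted in the 300 bases before each coding start of the RefSeq genome, build R64. It was found in 22.4% of all 5775 promoters, in 38.2% of those of genes called lower, in 52.2% of those that fell by a log2 fold change of at least 1, and in 13.1% of those of genes called higher. For the general stress list, whose members are known as targets of the factors that bind it, the share was 79.4%. Shown are 220 bases, ending 80 bases before the coding start, of 3 genes that fell and hold matches (capitals), and of GSY1, the largest fall among them, which holds none in the stretch shown.
HSP42 (chrIV:806321-806540, plus strand): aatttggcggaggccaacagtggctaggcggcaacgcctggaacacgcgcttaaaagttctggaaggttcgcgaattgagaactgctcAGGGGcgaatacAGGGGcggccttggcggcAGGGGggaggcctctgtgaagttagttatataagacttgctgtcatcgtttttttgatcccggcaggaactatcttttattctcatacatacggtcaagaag
TSL1 (chrXIII:70324-70543, plus strand): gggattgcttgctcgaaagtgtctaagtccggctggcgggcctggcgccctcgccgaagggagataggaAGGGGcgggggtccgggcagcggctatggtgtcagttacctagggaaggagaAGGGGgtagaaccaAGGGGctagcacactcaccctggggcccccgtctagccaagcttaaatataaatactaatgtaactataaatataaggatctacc
GLC3 (chrV:132820-133039, plus strand): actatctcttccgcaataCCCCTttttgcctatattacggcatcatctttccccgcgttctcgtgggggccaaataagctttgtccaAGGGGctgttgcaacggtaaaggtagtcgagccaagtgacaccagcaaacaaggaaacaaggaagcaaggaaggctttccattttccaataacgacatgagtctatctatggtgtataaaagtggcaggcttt
GSY1 (chrVI:176472-176691, minus strand): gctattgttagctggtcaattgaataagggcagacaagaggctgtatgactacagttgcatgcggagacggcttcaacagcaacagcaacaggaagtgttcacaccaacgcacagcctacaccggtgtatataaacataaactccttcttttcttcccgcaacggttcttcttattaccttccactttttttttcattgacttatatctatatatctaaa
HSP42 and TSL1 each hold 3 matches and GLC3 holds 2, 1 of them on the other strand. A match is a run of letters and was not tested as a binding site.

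Of 24 tested genes of cyclic AMP and protein kinase A signalling, 3 rose and 8 fell, which is 12.5% and 33.3% beside 5.42% and 7.31% of all genes. Besides RGS2, the rises were in PDE2, the high-affinity phosphodiesterase that breaks down cyclic AMP, and in MSN2. PDE2 was at 80.3, 81.3 and 94.3 CPM without ATP and 117, 99.2 and 133 CPM with it. MSN2 was at 109, 98.8 and 107 CPM without ATP and 129.6, 132 and 133 CPM with it. Their groups were apart, with log2 fold changes of 0.45 ± 0.11 and 0.33 ± 0.08 (edgeR adjusted p = 0.0318 and 0.0251). PDE2 lies next to VTS1 on chromosome XV, and the coding regions converge with a gap of 480 bases. Whether the counting used the strand of reads is not given in the sources used here.

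The falls included genes of a kinase subunit, G proteins and downstream regulators. The catalytic subunit gene TPK2 fell by 0.63 (edgeR adjusted p = 0.0416), whereas TPK3 was not called (0.15, edgeR adjusted p = 0.434). GPA2, the G protein on which Rgs2 acts, fell by 0.60, RAS2 by 0.38, GPB1, an inhibitor of the pathway, by 0.35, and SDC25, an exchange factor of Ras, by 0.27. GIS1 and YAK1, a transcription factor and a kinase of slow growth that act downstream, fell by 1.19 and 0.84 (edgeR adjusted p = 0.0216 and 0.0267). MSN4, the partner of MSN2, was at 533, 444 and 258 CPM without ATP and 243, 272 and 255 CPM with it and was not called (edgeR adjusted p = 0.0544), with untreated replicate 3 inside the treated range. The members CYR1, BCY1, PDE1, CDC25, GPR1, RIM15, IRA2, SOK2, IRA1, GPB2 and RAS1 were not called. The reduced fits gave 1, 1, 13, 0, 1 and 0 members called lower, and RGS2 was the rise called in each.

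Sugar transport and use formed the next group of falls. Of 13 genes of maltose use and the ZNF1 locus, 9 fell and 0 rose, with a median of -1.14. MAL13, an activator of the MAL1 locus, was at 37.6, 38.8 and 29.0 CPM without ATP and 18.9, 19.1 and 18.1 CPM with it. MAL33, the activator of the MAL3 locus, was at 19.1, 20.9 and 11.1 CPM without ATP and 5.27, 7.35 and 7.83 CPM with it. In both genes all treated values lay below all untreated ones, they fell by 0.91 and 1.32 (edgeR adjusted p = 0.00586 and 0.0116), and they were called whichever library was left out. The transporters MAL31 and MAL11 fell by 1.43 and 1.14, the maltases MAL12 and MAL32 by 1.197 and 0.89, and the isomaltase IMA1 by 1.29. IMA1, MAL13, MAL11 and MAL12 are adjacent on chromosome VII (1067222 to 1078353), and MAL33, MAL31 and MAL32 on chromosome II (800523 to 807105). Several of these genes have near-identical copies at the other locus, so that reads may be shared among them and their separate values are uncertain. MPH2, MPH3, IMA2 and IMA5 were not called (-0.62 to -0.02). Over the reduced fits 4, 6, 9, 5, 7 and 4 members were called lower.

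Of 20 hexose transporter and glucose sensor genes, 8 fell and 0 rose, with a median of -0.35. Besides HXT2 these included the high-affinity transporters HXT6 and HXT7, which are near-identical neighbours and cannot be separated with certainty, by 1.43 and 1.35, and HXT4 by 0.98. SNF3, the sensor of low glucose, was at 53.8, 44.3 and 35.9 CPM without ATP and 23.8, 29.4 and 21.8 CPM with it. It fell by 0.83 (edgeR adjusted p = 0.0132), and MTH1, a repressor of HXT genes that the sensors inactivate, fell by 1.19 (edgeR adjusted p = 0.0413). The polyol transporters HXT13 and HXT17, also near-identical, were at few CPM. HXT17 was at 9.79, 11.9 and 9.19 CPM without ATP and 3.89, 4.76 and 3.94 CPM with it, and HXT13 at 5.01, 5.58 and 5.40 CPM without ATP and 1.56, 1.98 and 1.53 CPM with it, with no overlap in either and falls of 1.29 and 1.65. The low-affinity transporters HXT1 and HXT3, the main carriers at high glucose, were not called. HXT1 was at 1416, 1149 and 1732 CPM without ATP and 1576, 1611 and 1584 CPM with it (edgeR adjusted p = 0.520). HXT3 was at 4717, 3353 and 3691 CPM without ATP and 3296, 3546 and 3066 CPM with it (edgeR adjusted p = 0.247). The list's other members, HXT5, HXT8, HXT9, HXT10, HXT11, HXT15, GAL2, RGT1, RGT2 and STD1, were not called either. The reduced fits called 1, 2, 8, 1, 2 and 1 members lower.

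Of 19 genes of the Snf1 kinase and glucose repression, 3 rose and 5 fell. CAT8 and ADR1, activators of genes for growth on ethanol, were at 36.8, 39.2 and 19.3 CPM without ATP and 15.7, 14.5 and 13.1 CPM with it and at 77.5, 85.2 and 35.0 CPM without ATP and 30.9, 33.2 and 31.6 CPM with it. In both, replicate 3 lay nearest the treated libraries without overlap, and they fell by 1.14 and 1.05 (edgeR adjusted p = 0.0145 and 0.0305). REG2, a targeting subunit of Glc7, fell by 1.06, HXK2 by 0.39 and SIP1, a beta subunit of the kinase, by 0.22. The rises were in TUP1, the general corepressor, and in TOS3 and ELM1, kinases that activate Snf1. TUP1 was at 58.8, 70.9 and 68.4 CPM without ATP and 154, 124 and 76.7 CPM with it. ATP replicate 3 lay close to the untreated libraries, and TUP1 rose by 0.84 ± 0.22 (edgeR adjusted p = 0.0328). TOS3 and ELM1 rose by 0.50 and 0.31. MIG1, MIG2, MIG3, SNF1, SNF4, SIP2, GAL83, SAK1, REG1, GLC7 and CYC8 were not called (-0.58 to 0.29), and the reduced fits called 0, 0, 11, 0, 0 and 1 members of the list.

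Central carbon metabolism changed at single isoenzymes. Of 28 glycolysis and fermentation genes, EMI2, a glucokinase-like gene, fell by 1.40, PYK2, the minor pyruvate kinase, by 0.95, PFK26, which makes the activator fructose 2,6-bisphosphate, by 0.62, and ADH5 by 0.51, with HXK2 as above, while PFK27, the second such kinase, rose by 0.60. PFK26 was at 93.1, 103 and 57.9 CPM without ATP and 54.5, 56.4 and 54.2 CPM with it. PFK27 was at 109, 108 and 156 CPM without ATP and 199, 166 and 201 CPM with it. The pair moved apart, each without overlap (edgeR adjusted p = 0.0390 and 0.0305). Of 15 genes of the glyoxylate cycle and gluconeogenesis, MDH2, the cytosolic malate dehydrogenase, fell by 0.94 (edgeR adjusted p = 0.00940) and was called whichever library was left out. ICL1, isocitrate lyase, fell by 0.48 and FBP1, fructose bisphosphatase, by 0.37, CAT8 counts here too, and ADH2, the ethanol-oxidising enzyme, rose by 0.67. PCK1, MLS1, JEN1, SIP4, IDP2, ADY2, CIT2, ACS1, SFC1 and MAE1 were not called. In the reduced fits 0, 1, 10, 0, 2 and 0 glycolysis genes and 1, 2, 8, 1, 2 and 1 glyoxylate and gluconeogenesis genes were called.

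Genes of mitochondrial energy supply were mostly not called. Of 18 tricarboxylic acid cycle genes 0 were called by edgeR, with 1 at an unadjusted p under 0.05 and 1 called by DESeq2. IDH2, a subunit of isocitrate dehydrogenase, had the lowest adjusted value (-0.47, edgeR adjusted p = 0.0759), and CIT1, ACO1, IDH1, KGD1, KGD2, LPD1, LSC1, LSC2, SDH1, SDH2, SDH3, SDH4, FUM1, MDH1, PYC1 and PYC2 had higher ones. Without untreated replicate 3, 6 of the 18 were called lower. Of 24 respiratory chain genes 1 was called, CYC7, which fell, and 4 were called lower without untreated replicate 3. The respiratory chain median was 0.187, and 18 of the 24 had a positive log2 fold change. Of 16 ATP synthase genes 0 were called by edgeR, with 8 at an unadjusted p under 0.05 and 1 called by DESeq2, and 1 was called higher without untreated replicate 3. The synthase median was 0.31, and 15 of its 16 members had a positive log2 fold change. Over all genes, 3119 of 6157 were positive. Over the reduced fits the medians ran from 0.103 to 0.326 for the respiratory chain and from 0.189 to 0.428 for the synthase. Both were lowest without untreated replicate 2. ATP14, the member of smallest p, was at 80.0, 60.7 and 75.6 CPM without ATP and 86.9, 94.9 and 93.1 CPM with it (edgeR adjusted p = 0.0664), and ATP2, the catalytic beta subunit, was at 1399, 1049.9 and 1180.0 CPM without ATP and 1463, 1580.1 and 1479 CPM with it (edgeR adjusted p = 0.124). In both, each treated library lay above each untreated one and untreated replicate 2 lay lowest. The other members, ATP1, ATP3, ATP4, ATP5, ATP7, ATP15, ATP16, ATP17, ATP18, ATP19, ATP20, TIM11, INH1 and STF1, lay within -0.11 to 0.41. Of 12 carriers of nucleotides and phosphate, AAC1, PET9, AAC3, ANT1, MIR1, PIC2, SAL1, RIM2, LEU5, NDT1, NDT2 and GGC1, 0 were called by edgeR or DESeq2 and 3 had an unadjusted p under 0.05. Over all 6157 genes, 1845 (30.0%) had an unadjusted p under 0.05 and DESeq2 called 1120. The log2 fold changes of the carriers ran from -0.38 to 0.28, with the smallest p at GGC1, a mitochondrial GTP carrier. PET9, the main ADP/ATP carrier, was at 977, 656 and 796 CPM without ATP and 874, 1024 and 965 CPM with it (edgeR adjusted p = 0.339).

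Ribosomes are assembled in the nucleolus by factors that do not remain in the particle. Of 60 genes of the small-subunit processome and 40S assembly, 11 were called higher and 0 lower, with a median of 0.40, and of 60 genes of 60S assembly 11 were called higher and 0 lower, with a median of 0.38. These are 18.3% of each list, beside 5.42% of all genes. NSR1, nucleolin, was at 340.2, 261 and 614 CPM without ATP and 706, 778 and 791 CPM with it. UTP6, of the processome, was at 36.3, 37.2 and 68.2 CPM without ATP and 83.7, 77.8 and 85.6 CPM with it. In both, untreated replicate 3 lay far above the other untreated libraries yet below all treated ones, and they rose by 0.90 and 0.80 (edgeR adjusted p = 0.0336 and 0.0271). RRP9, a protein of the U3 particle, and UTP15 rose by 0.75 and 0.87, and the others called were UTP9, UTP13, EMG1, RCL1, FCF1, RRP7 and DBP8.

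For 60S assembly, NOG2, a GTPase of late nuclear steps, was at 74.7, 70.1 and 169 CPM without ATP and 211, 195 and 229 CPM with it. CIC1 was at 76.2, 73.8 and 141 CPM without ATP and 170.0, 169.8 and 187 CPM with it. SSF1, whose counts may be shared with its near-identical copy SSF2, was at 36.3, 41.3 and 84.2 CPM without ATP and 98.9, 97.8 and 112 CPM with it. The groups did not overlap, with log2 fold changes of 1.01, 0.86 and 0.93 (edgeR adjusted p = 0.0331, 0.0267 and 0.0328). NOG1, another GTPase, and PUF6 rose by 0.87 and 0.86, as did SPB1, NSA2, IPI1, RSA4, MRT4 and ALB1. Without untreated replicate 3, 56 of 60 small-subunit genes and 58 of 60 large-subunit genes were called higher, with medians of 0.72 and 0.68, beside 16.3% of all genes. Without any other single library, 0 and 0 were called. Over the small-subunit list the median log2 CPM lay -0.45, -0.56 and 0.31 from the 6-library mean in the untreated replicates, and between 0.19 and 0.27 with ATP, so that untreated replicate 3 lay above all treated libraries.

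**Figure D5:**
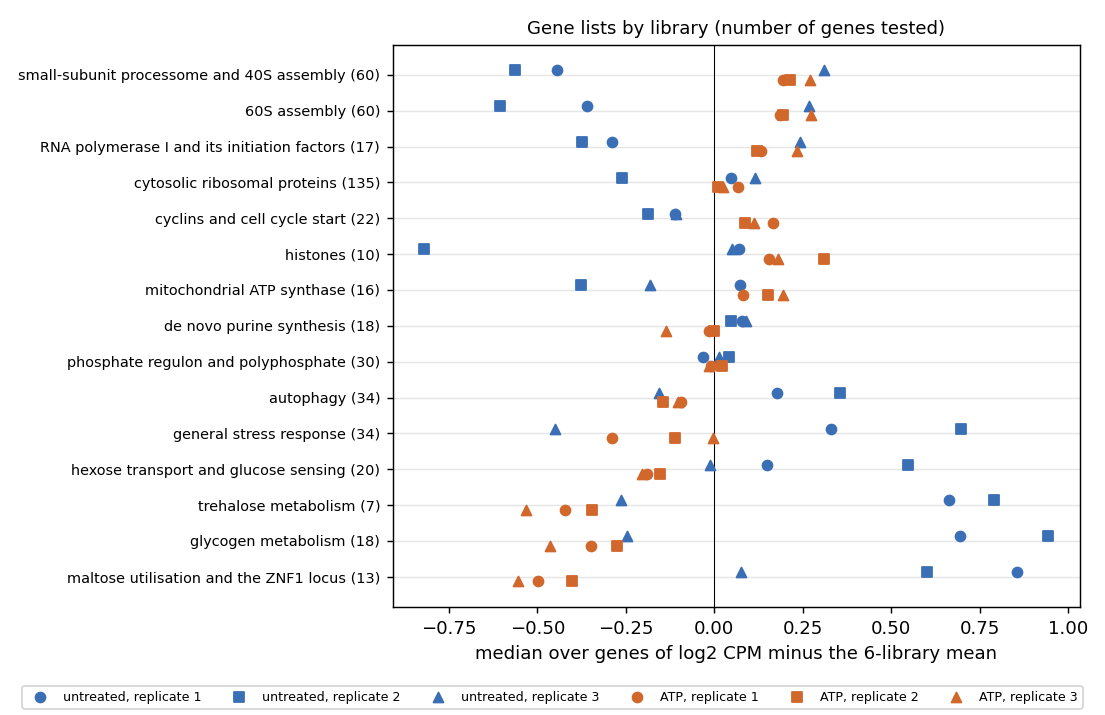
Median over the genes of each list of the log2 CPM minus the mean of the 6 libraries (x axis), for 15 lists and each wild-type library, with blue symbols for untreated and orange for ATP and the number of genes tested in brackets. Assembly lists are low and storage sugar and stress lists high in untreated replicates 1 and 2, while untreated replicate 3 (blue triangles) lies with the ATP libraries, and histones are low in untreated replicate 2.

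The motifs PAC core, GATGAG, and RRPE core, AAAATTT, each on either strand, were counted in the same promoters. Both were present in 7.72% of all promoters, in 85.0% of the small-subunit list and 88.3% of the 60S list, in 13.4% of genes called higher and in 1.59% of genes called lower. Shown for 1 member of each list are the same 220 bases, with matches to either motif in capitals.
NSR1 (chrVII:807737-807956, minus strand): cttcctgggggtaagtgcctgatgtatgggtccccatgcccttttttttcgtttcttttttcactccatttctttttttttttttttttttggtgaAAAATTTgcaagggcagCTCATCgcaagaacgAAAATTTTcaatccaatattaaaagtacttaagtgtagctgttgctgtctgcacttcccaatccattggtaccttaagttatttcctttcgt
SSF1 (chrVIII:229035-229254, plus strand): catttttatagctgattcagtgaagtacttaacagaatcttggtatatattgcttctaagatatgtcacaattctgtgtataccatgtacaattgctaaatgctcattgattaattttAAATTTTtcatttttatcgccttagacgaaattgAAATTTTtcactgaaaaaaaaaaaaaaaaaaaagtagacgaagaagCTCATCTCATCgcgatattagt
NSR1 holds 1 PAC core and 3 RRPE cores, of which a pair overlaps on opposite strands, and SSF1 holds 2 overlapping PAC cores and 2 RRPE cores in the stretch shown. Whether factors are bound there was not measured.

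RNA polymerase genes changed at few members. Of 17 RNA polymerase I genes, RRN11 and UAF30, a subunit of the upstream activation factor, rose, the latter by 0.51 (edgeR adjusted p = 0.0131), and the list median was 0.31. The 2 largest subunits were not called. RPA190 was at 318, 291 and 486 CPM without ATP and 399, 406 and 394 CPM with it (edgeR adjusted p = 0.634), with untreated replicate 3 highest of all 6, and RPA135 was likewise highest in that library (0.21, edgeR adjusted p = 0.434). RPA12, RPA14, RPA34, RPA43, RPA49, RPC19, RPC40, RRN3, RRN5, RRN6, RRN7, RRN9 and RRN10 were not called. The fit without untreated replicate 3 called 15 of 17 higher. Of 19 RNA polymerase III genes, BRF1, an initiation factor subunit, fell by 0.19 (edgeR adjusted p = 0.0481), and MAF1, the repressor, was not called (-0.27, edgeR adjusted p = 0.0732), nor were RPO31, RET1, RPC82, RPC53, RPC37, RPC34, RPC31, RPC25, RPC17, RPC11, BDP1, TFC1, TFC3, TFC4, TFC6, TFC7 and TFC8. The reduced fits called 1, 2, 15, 1, 2 and 0 polymerase I genes and 0, 0, 9, 0, 0 and 0 polymerase III genes.

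The structural proteins of the ribosome form a separate list. Of 135 ribosomal protein genes tested, 2 were called higher, RPL28 and RPL22A, with a list median of 0.06. RPL28 was at 12.5, 13.4 and 17.0 CPM without ATP and 25.4, 28.5 and 23.2 CPM with it. It rose by 0.85 (edgeR adjusted p = 0.0119), and RPL22A rose by 1.01. Per kilobase of gene span without ATP, these genes were at 14.9 and 2.78 CPM, whereas the median ribosomal protein gene was at 1349.7 CPM. Without untreated replicate 3, 4 were called higher. Among 13 growth regulators of these genes, 1 rose and 1 fell, or 7.69% each, near the 5.42% and 7.31% of all genes. IFH1, the coactivator of ribosomal protein genes, rose by 0.69, and TOR1, the growth kinase, fell by 0.27 (edgeR adjusted p = 0.0348 and 0.0479). IFH1 was at 49.3, 65.1 and 92.8 CPM without ATP and 112, 103 and 120.4 CPM with it. TOD6, a repressor that binds PAC, was at 44.7, 49.9 and 108 CPM without ATP and 107, 124 and 140.4 CPM with it (edgeR adjusted p = 0.0556), with untreated replicate 3 at the treated level. SFP1, SCH9, KOG1, TCO89, STB3, CRF1, HMO1, RAP1, FHL1 and DOT6 were not called. The reduced fits called 0, 2, 4, 1, 2 and 1 ribosomal protein genes and 0, 0, 6, 0, 0 and 0 regulators.

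Cyclins drive the steps of the cell cycle through the kinase Cdc28. Of 22 cyclin and cell cycle start genes, 10 rose and 0 fell, which is 45.5% beside 5.42% of all genes, with a median of 0.30, and the median position of that library in the called genes was 0.35. CLB1, a mitotic B-type cyclin, was at 84.4, 77.7 and 86.1 CPM without ATP and 156, 148 and 147 CPM with it. PCL1, a G1 cyclin of the kinase Pho85, was at 63.7, 51.0 and 72.4 CPM without ATP and 111, 107 and 121 CPM with it. CLN2, a G1 cyclin, was at 149, 141 and 202 CPM without ATP and 237, 238 and 274 CPM with it. In these genes all treated values lay above all untreated ones, with log2 fold changes of 0.86 ± 0.09, 0.86 ± 0.12 and 0.60 ± 0.13 (edgeR adjusted p = 0.00445, 0.00611 and 0.0187). CLB1 and PCL1 were called whichever library was left out, and CLN2 in 2 of the 6 reduced fits. The other rises were in CLB5, CLB2 and CLB4, cyclins of S phase and mitosis, at 0.58, 0.40 and 0.29, in PCL9 and PCL2 at 0.49 and 0.41, and in FAR1 and SIC1, inhibitors of the cyclin-dependent kinase, at 0.50 and 0.54. CLN1, CLN3, CLB3, CLB6, CDC28, WHI5, SWI4, SWI6, MBP1, BCK2 and SWI5 were not called. The reduced fits called 2, 3, 10, 3, 6 and 4 members higher.

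Of 10 histone genes 1 was called, HHO1, the linker histone, which rose by 0.47 (edgeR adjusted p = 0.0343), and the list median was 0.40. Untreated replicate 2 was the lowest of the 6 libraries in each of the 10. HTA2 was at 825, 339 and 805 CPM without ATP and 849, 964 and 829.7 CPM with it (edgeR adjusted p = 0.315). Without that library the list median was 0.12 and 0 members were called, and the reduced fits gave 0, 0, 4, 0, 0 and 0 calls. The members not called were HTA1, HTA2, HTB1, HTB2, HHT1, HHT2, HHF1, HHF2 and HTZ1. Among markers of other cell states, IME2, the kinase of meiotic entry, fell by 1.00 (edgeR adjusted p = 0.0119) from levels of 28.8, 24.5 and 22.2 CPM without ATP and 12.9, 13.4 and 11.2 CPM with it, and IME1, NDT80, SPO11, SPO13, HOP1, RED1, ZIP1, DMC1, REC8, SPS1, SPS2, SPS4, SPR3, DIT1, DIT2 and SMK1 were not called. Of 17 mating genes, FUS1, a fusion protein of mating cells, fell by 0.50, FAR1 rose as above, and MFA1, MFA2, MF(ALPHA)1, MF(ALPHA)2, STE2, STE3, STE6, BAR1, AGA1, AGA2, GPA1, STE4, STE12, FUS3 and FIG1 were not called. Fits without 1 library called 0, 1, 2, 1, 1 and 0 meiosis and 0, 0, 4, 0, 1 and 0 mating genes.

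Genes of purine metabolism were mostly not called. Of 18 genes of new purine synthesis 1 fell, MTD1, a one-carbon dehydrogenase that feeds the pathway, by 0.44 (edgeR adjusted p = 0.0251). ADE17, an enzyme of the last steps to IMP, was at 1770.5, 1878 and 1634 CPM without ATP and 1566, 1517 and 1418 CPM with it (edgeR adjusted p = 0.0891), and ADE4, the first enzyme, was at 348, 271 and 360.1 CPM without ATP and 370.4, 347 and 300.1 CPM with it (edgeR adjusted p = 0.828). Nor were ADE1, ADE2, ADE3, ADE5,7, ADE6, ADE8, ADE12, ADE13, ADE16, SHM2, IMD2, IMD3, IMD4, GUA1 and BAS1, and the list median was -0.08. Of 19 salvage genes 1 fell, AMD1, AMP deaminase, by 0.39 (edgeR adjusted p = 0.0131). AMD1 was at 146, 148 and 129.7 CPM without ATP and 109, 112 and 101 CPM with it. FCY2, the purine and cytosine permease, was at 383, 309 and 632 CPM without ATP and 699.6, 646 and 696 CPM with it and was not called (edgeR adjusted p = 0.0574), with untreated replicate 3 nearest the treated libraries. The other members, APT1, HPT1, AAH1, ADO1, ADK1, ADK2, YNK1, FUN26, FCY21, FCY22, XPT1, PNP1, ISN1, GUD1, HAM1, YND1 and GDA1, were not called. In the reduced fits 0, 0, 4, 0, 0 and 0 synthesis and 0, 1, 6, 0, 1 and 0 salvage genes were called.

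Of 30 genes of the phosphate regulon and polyphosphate, 1 was called, PHO11, a repressible acid phosphatase that is near-identical to PHO12, which fell by 0.41 (edgeR adjusted p = 0.0492). PHO11 was at 8.54, 7.38 and 9.36 CPM without ATP and 5.99, 5.83 and 7.19 CPM with it, and the call was lost in each fit without 1 library. The list median was -0.02. The fit without untreated replicate 3 called 4 members higher and 3 lower, and the others without 1 library called 0. PHO5, the main secreted acid phosphatase, which rises when phosphate is scarce, was at 29.4, 31.2 and 28.4 CPM without ATP and 30.7, 28.4 and 28.3 CPM with it (edgeR adjusted p = 0.897), and the high-affinity transporter PHO84 was at 54.8, 80.9 and 62.6 CPM without ATP and 63.1, 67.2 and 67.1 CPM with it (edgeR adjusted p = 0.983).

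Metal genes changed in single members. Of 27 iron genes 3 rose and 2 fell. ARN1, a siderophore transporter, was at 43.1, 40.1 and 49.3 CPM without ATP and 70.1, 91.7 and 84.4 CPM with it. FET4, a low-affinity iron transporter, was at 65.3, 82.3 and 82.8 CPM without ATP and 48.8, 48.8 and 55.4 CPM with it. The ranges were apart in both, and ARN1 rose by 0.89 ± 0.23 while FET4 fell by 0.59 (edgeR adjusted p = 0.0318 and 0.0116). AFT1, the iron-responsive activator, and FRE6, a vacuolar reductase, rose by 0.32 and 0.33, and MRS4, a mitochondrial iron carrier, fell by 0.53. The iron list without untreated replicate 3 had 4 higher and 3 lower, and the reduced fits called 1, 2, 7, 0, 2 and 1 members.

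Of 14 zinc genes 3 rose, IZH1 and IZH2, membrane proteins of zinc and sterol homeostasis, and ZRG17, a zinc transporter of the endoplasmic reticulum. IZH1 was at 46.8, 57.2 and 70.9 CPM without ATP and 91.0, 93.3 and 101 CPM with it. It rose by 0.71 ± 0.12 (edgeR adjusted p = 0.0101) and was called whichever library was left out, while IZH2 and ZRG17 rose by 0.37 and 0.32. The uptake genes varied among untreated cultures. ZRT1, the high-affinity zinc transporter, was at 1972, 443 and 2057 CPM without ATP and 1603, 1360.5 and 1378 CPM with it, with untreated replicate 2 low, and ZPS1, a strongly zinc-repressed gene, was at 273, 15.4 and 113 CPM without ATP and 21.7, 19.5 and 17.9 CPM with it, with untreated replicates 1 and 3 high (edgeR adjusted p = 0.971 and 0.114). ZAP1, ZRT2, ZRT3, ZRC1, COT1, MSC2, ADH4, ZRG8 and IZH4 were not called. With single libraries left out, the fits called 1, 2, 4, 2, 1 and 1 zinc genes. Of 10 copper genes CTR2, a vacuolar copper transporter, rose by 0.31, and of 17 calcium genes CCH1, a plasma membrane channel subunit, rose by 0.32 and CMK1, a calmodulin-dependent kinase, fell by 0.68 (edgeR adjusted p = 0.0442, 0.0478 and 0.04999). Of 5 magnesium transporter genes MNR2, of the vacuolar membrane, fell by 0.38 (edgeR adjusted p = 0.0131), from 149, 144 and 124 CPM without ATP and 109.7, 106 and 102 CPM with it, and ALR1, ALR2, MRS2 and MFM1 were not called. The copper genes CTR1, CTR3, MAC1, CUP2, ATX1, CCC2, CCS1, SOD1 and FRE7 and the calcium genes CNA1, CMP2, CNB1, CRZ1, RCN1, RCN2, CMK2, CMD1, MID1, PMR1, PMC1, VCX1, YVC1, ENA1 and GSC2 were not called. Of 15 vacuolar proton ATPase genes, VMA1, VMA2, VMA3, VMA4, VMA5, VMA6, VMA7, VMA8, VMA9, VMA10, VMA11, VMA13, VMA16, VPH1 and STV1, 0 were called by edgeR, with 3 at an unadjusted p under 0.05 and 1 called by DESeq2, and the lowest adjusted p was at VPH1, a subunit of the membrane sector (edgeR adjusted p = 0.0841). Among all genes, 30.0% had an unadjusted p under 0.05. With 1 library out at a time, the fits called 0, 0, 2, 0, 0 and 0 copper, 0, 0, 11, 0, 0 and 0 calcium and 0, 1, 1, 1, 1 and 0 magnesium genes.

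Of 57 amino acid synthesis genes, 4 fell and 1 rose, which is 7.02% and 1.75%, at or below the 7.31% and 5.42% of all genes. Falls in ARG56 and ARG4 of arginine synthesis and HIS4 of histidine synthesis were by 0.66, 0.53 and 0.54, and THR1, homoserine kinase, rose by 0.44. ARG4 was at 499, 562 and 573 CPM without ATP and 379, 387 and 362 CPM with it. THR1 was at 198, 225 and 201 CPM without ATP and 286, 287 and 271 CPM with it. Untreated replicate 3 lay with the other untreated libraries in both (edgeR adjusted p = 0.0202 and 0.0387), and its median position over the called genes of the list was -0.163. The 4 falls and 1 rise were each lost without at least 1 of the other libraries.

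Of 20 amino acid permease genes, BAP3, GAP1 and LYP1 rose, by 0.71, 0.60 and 0.28, and AGP2 and MUP3 fell, by 1.12 and 0.90. The members AGP1, AGP3, ALP1, BAP2, CAN1, DIP5, GNP1, HIP1, MUP1, PUT4, SAM3, MMP1, SSY1, TAT1 and TAT2 were not called. AGP2, a plasma membrane sensor and carnitine transporter, was at 97.0, 95.9 and 51.7 CPM without ATP and 35.8, 42.8 and 33.7 CPM with it (edgeR adjusted p = 0.0131). Of 23 targets of nitrogen repression, DUR3, the urea transporter, MEP2, an ammonium transporter, and DCG1 rose, by 0.67, 0.27 and 0.45. DUR3 was at 22.5, 24.7 and 23.5 CPM without ATP and 38.9, 37.6 and 35.7 CPM with it. The groups were tight and apart (edgeR adjusted p = 0.0212). DUR3 was also called in the 6 wild-type libraries alone, but in only 1 of the 6 reduced fits. Of 23 sulfate and methionine genes STR3, cystathionine beta-lyase, fell by 1.52 (edgeR adjusted p = 0.0306). Untreated replicate 2 stood high in this list, with MET3, ATP sulfurylase, at 97.8, 442 and 85.1 CPM without ATP and 164, 119 and 170.3 CPM with it (edgeR adjusted p = 0.678), and without that library the list median went from -0.20 to 0.195. Fits without 1 library called 0, 1, 10, 0, 1 and 0 permease, 0, 1, 5, 0, 0 and 0 nitrogen-repressed and 0, 0, 3, 0, 0 and 0 sulfate and methionine genes.

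At the cell surface, 2 of 24 wall genes rose and 0 fell, CIS3 and RLM1, the transcription factor of the wall integrity pathway. CIS3 was at 624, 613 and 657 CPM without ATP and 961, 1096 and 1021 CPM with it. The groups were apart (0.70 ± 0.13, edgeR adjusted p = 0.0129), and RLM1 rose by 0.58 (edgeR adjusted p = 0.0307). Of 19 genes of TORC2 signalling and eisosomes, the furrows of the plasma membrane, 5 fell and 1 rose. YPK2, a kinase downstream of TORC2, was at 118, 102 and 63.3 CPM without ATP and 48.7, 52.1 and 40.3 CPM with it. It fell by 1.01, with PKH1 and PKH2, the kinases upstream, by 0.62 and 0.42, EIS1 by 0.71 and SLM1 by 0.46, whereas SLM2, the paralog of SLM1, rose by 0.37 (edgeR adjusted p = 0.0131 for YPK2 and 0.0179 for SLM2). The core eisosome genes PIL1 and LSP1 were not called, nor were NCE102, TOR2, TSC11, AVO1, AVO2, BIT61, BIT2, LST8, YPK1, SEG1 and SEG2. Of 30 cortical actin patch genes 0 were called by edgeR and 3 by DESeq2. An unadjusted p under 0.05 was reached by 3, ABP1 first, beside 30.0% of all genes. With single libraries left out, the fits called 0, 2, 8, 1, 1 and 0 wall genes, 0, 1, 11, 1, 1 and 0 TORC2 and eisosome genes and 0, 1, 9, 0, 0 and 0 actin patch genes.

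Of 26 ergosterol genes, the activators UPC2 and ECM22 fell and the enzyme genes ERG5, NCP1 and ERG25 rose. UPC2 was at 63.6, 61.0 and 62.5 CPM without ATP and 47.8, 46.5 and 43.7 CPM with it. ECM22 was at 78.8, 61.1 and 63.8 CPM without ATP and 41.3, 41.6 and 34.2 CPM with it. In both, every treated library lay below every untreated one with replicate 3 among its group, they fell by 0.44 and 0.80 (edgeR adjusted p = 0.00611 and 0.00916), and they were called whichever library was left out. ERG5 rose by 0.45, NCP1 by 0.40 and ERG25 by 0.28. Of 14 genes of peroxisomal beta-oxidation, FAA2 and PXA1, which bring fatty acids in, fell by 0.62 and 0.56, and PEX11, a protein of peroxisome division, rose by 0.24, while POX1, FOX2, POT1, PXA2, ECI1, DCI1, SPS19, TES1, OAF1, PIP2 and CTA1 were not called. Of 19 thiamine and pyridoxine genes, SNZ1, SNZ2, SNZ3, SNO1, SNO2, SNO3, THI2, THI3, THI4, THI5, THI6, THI7, THI11, THI12, THI13, THI20, THI21, THI22 and THI73, 0 were called by edgeR, 2 had an unadjusted p under 0.05, beside 30.0% of all genes, and 1 was called by DESeq2, and the fit without untreated replicate 3 called 3 higher. Of 13 RNA-binding regulators VTS1 rose as above, and PUF2, which binds transcripts of membrane proteins, fell by 0.84 (edgeR adjusted p = 0.00632), from 88.0, 81.9 and 65.5 CPM without ATP and 43.0, 47.9 and 40.3 CPM with it, and was called whichever library was left out. The members PUF3, PUF4, MPT5, WHI3, WHI4, JSN1, PUB1, NAB2, NAB3, NRD1 and SRO9 were not called. Over the reduced fits 2, 2, 12, 2, 2 and 2 ergosterol, 0, 0, 8, 0, 1 and 0 peroxisome and 2, 2, 4, 2, 2 and 3 RNA-binding genes were called.

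The ATP response of wild type was set beside that of the NTT1 strain, measured in other libraries. There, 183 genes were called higher and 92 lower, which is 2.97% and 1.49% of the genes tested, or 4.47% together, and 170 genes were called in both strains, which is 21.7% of those of wild type and 61.8% of those of NTT1, all in the same direction. Of the 784 genes called in wild type, 749 had the same sign in NTT1 (95.5%), beside 70.7% of the genes not called. The median NTT1 log2 fold change was 0.342 over genes called higher in wild type and -0.321 over genes called lower. RGS2 changed by 1.74 in wild type and 1.88 in NTT1, CLB1 by 0.86 and 0.63, and GSY1 by -2.87 and -2.62. For ZNF1 the fitted values were -3.10 in wild type and -1.66 in NTT1, and for GPP2 they were 0.82 and 0.12. The difference between strains, tested as the interaction in the same edgeR fit, was called for 0 genes, with a smallest adjusted p of 0.388. Its unadjusted p was under 0.05 for 365 of 6157 genes, against 1845 for ATP in wild type. DESeq2 called 6 genes for the difference. Without untreated replicate 3 of wild type the difference was called for 106 genes in edgeR.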

How the data were processed

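Total RNA of 12 yeast cultures, 3 for each combination of strain and ATP, was extracted with a fungal and bacterial RNA kit and made into Illumina TruSeq libraries, per the labels' protocols. Reads were counted per gene by the authors, whose deposited table holds raw counts. The submitters' processing notes name HISAT2 2.0.5, featureCounts 1.5.0, DESeq2 1.20.0 and the build R64, and the annotation and strand setting are not given in the sources used here. Of 7127 features, 6023 matched the RefSeq gene table by locus tag, 370 of them after a change of punctuation in the tag, and the 1104 others hold 0.282% of counts.

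The counts were fitted with edgeR 4.0.16 in R 4.3.3, by a quasi-likelihood model of 4 group means over all 12 libraries with TMM factors and 8 residual degrees of freedom. The filterByExpr function kept 6157 features with 99.99% of counts. ATP against untreated wild type was tested per gene, with Benjamini-Hochberg adjustment over all of them at 0.05. CPM were TMM-normalised, and fold changes used a prior count of 0.125. Standard errors were taken from the fold change and its F statistic and are approximate. The fit was tested on simulated data. An exact 2-sided permutation test of 3 against 3 cannot go below p = 0.1 and was not used for single genes. Alternatives were RLE and upper-quartile factors, no filter or a stricter one, the wild-type libraries alone, a replicate block, DESeq2 1.42.0, matched features only and each library left out. The fit of wild-type libraries alone without untreated replicate 3 was chosen after seeing the data.

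The 47 gene lists, and the genes described, were chosen with earlier results of these data known. Named genes are the 12 largest rises and falls averaging 20 counts or more, with ranges apart, the 5 called genes of highest CPM in each direction, up to 3 called members of smallest p per list and direction, or the member of smallest p where none was called, all members of lists of up to 20 genes, and neighbours of the largest changes. A few of these genes are not reported here. Promoters were the 300 bases before the coding start in RefSeq R64.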

Additional observations from a re-analysis of the deposited data

How the results depend on the processing

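The calls depend on which libraries enter the fit. With each of the 6 wild-type libraries left out in turn, the genes called ran from 89 to 2086, those called higher from 34 to 1009, those called lower from 44 to 1077, those changed at least 2-fold from 22 to 244, and those whose response differed between strains from 0 to 106. In the 6 wild-type libraries alone, 19 genes were called, 9 higher and 10 lower, 12 of them at least 2-fold, and without untreated replicate 3 this fit called 1676, 783 higher and 893 lower, 238 at that size. DESeq2's Wald test called 508 genes higher and 612 lower, and 6 genes for the difference between strains (HPF1, CSS1, THR1, UBR2, YDL016C and snR37), against 0 in edgeR. HPF1, CSS1 and UBR2 were called for ATP in wild type whichever library was left out. The counts of calls stayed within 1.5 times the reported ones with RLE or upper-quartile factors, with no filter or a stricter one, and with matched features only.

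Deviations of same-numbered libraries correlated at -0.039, 0.101 and 0.088, which is too weak to show whether replicate numbers pair the cultures. Untreated replicate 1 correlated best with ATP replicate 2 (0.137), and untreated replicates 2 and 3 with the ATP libraries of the same number. With the replicate number as a block, 671 genes were called, and with the block in the wild-type libraries alone 1 was called, which was 0 higher and 1 lower, and 1 at least 2-fold.

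Of the 201 genes with their own values in the text, 8 changed sign under some setting, and none of the 8 was called. Their log2 fold changes, with each library left out in turn, ran from -0.061 to 0.135 at ADE4, from -0.589 to 0.085 at CTT1, from -0.839 to 0.724 at MET3, from -0.109 to 0.021 at PGM1, from -0.064 to 0.015 at PHO5, from -0.126 to 0.166 at PHO84, from -0.005 to 0.395 at RPA190 and from -0.476 to 0.261 at ZRT1. With matched features only PHO84 was at 0.001. ZRT1 was at 0.258 in wild-type libraries without untreated replicate 3, and at 0.112 with the replicate block. With the block in wild-type libraries alone, MET3, PHO84 and ZRT1 were at 0.001, 0.007 and 0.219. Of the 47 list medians, 34 kept their sign in every setting and 13 did not. The depth of at least 15918385 counts per library limits genes of few CPM, such as YFL051C, HXT13 and YPR044C.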

Other observations

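Called genes of 1 direction lay side by side at 16 places with 3 or more adjacent genes, a pattern noted after the values were seen and not tested. Besides the ZNF1 and maltose loci, YCR099C, EMA35, YCR101C and YCR102C near the right end of chromosome III fell by 0.85, 0.59, 0.77 and 0.86 on the log2 scale. On chromosome VII, BRF1, CPD1, SOL4 and MGA1 (982482 to 989419) fell by 0.19, 0.49, 1.11 and 1.56, where MGA1 encodes a protein similar to heat shock factors and SOL4 a 6-phosphogluconolactonase. On chromosome XI, ABF1, KTI12 and HAP4, the last being the activator subunit for respiratory genes, fell by 0.38, 0.62 and 1.05, and KTI12 was called whichever library was left out. On chromosome XV, PNT1, HRK1 and PAC1 rose by 0.44, 0.84 and 0.59, where HRK1 encodes a kinase that acts on the plasma membrane proton pump. Within 20000 bases of a chromosome end, 9.45% of 201 genes fell and 2.49% rose, beside 7.56% and 5.64% of the genes elsewhere.

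Of the 784 called genes, 166 were on the gene lists and 618 on none. Among 375 tested features without a RefSeq match, 14 rose and 9 fell, and 17 called genes overlap another annotated gene, so that their counts cannot be told apart where the counting ignored strand.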
